A study of Mus musculus with 9 samples.

Results

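Neurexins, neuroligins and leucine-rich repeat transmembrane proteins (LRRTMs) are surface proteins that hold the sending and the receiving side of a synapse together. The genes described are the neurexins Nrxn2 and Nrxn3, the neuroligins Nlgn1, Nlgn2 and Nlgn3, and Lrrtm1, Lrrtm2, Lrrtm3 and Lrrtm4. The rule for choosing them was membership of these families, by name. They are 9 of the 24054 genes listed in the expression table, and all 9 passed the filter on low values that left 12923 genes for testing.

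The values come from cultured primary cortical neurons of wild-type C57BL/6 mice, used after 6 days in culture. The 9 libraries fall into 3 groups of 3. The first was kept at 0.2% oxygen for 7 hours with 10 nM of the active thyroid hormone triiodothyronine in the medium (hypoxia with T3), the second was kept at 0.2% oxygen for 7 hours without added T3 (hypoxia), and the third was kept in normal oxygen (normoxia). Libraries carry the numbers of their column headers, 11 to 13 in hypoxia with T3, 7 to 9 in hypoxia and 1 to 3 in normoxia. There was no group with T3 in normal oxygen, and no label states that libraries of one group stem from separate cultures or animals. The p-values therefore measure the spread between libraries of unknown origin, which could be technical only. All cells grew in Neurobasal medium with B27 supplement.

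Neurexins sit mainly on the presynaptic membrane and bind several families of partners across the cleft. Neuroligins are postsynaptic partners: neuroligin 1 is found mostly at excitatory synapses, neuroligin 2 at inhibitory ones and neuroligin 3 at both. LRRTMs are a second family of postsynaptic neurexin partners, found at excitatory synapses, and LRRTM2 competes with neuroligin 1 for neurexin.

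The promoters of Nlgn1, Lrrtm1 and Nlgn2 are shown because these genes were, in that order, the member most strongly lowered in hypoxia, the member that was higher, and a neuroligin that missed the threshold. Each line gives the 250 bases before a RefSeq transcript start on the gene's own strand (GRCm38.p6), and capitals mark a match to the motif ACGTG or its reverse complement. The Nlgn1 window is chr3:26331910-26332159 on the minus strand, the Lrrtm1 window is chr6:77242227-77242476 on the plus strand, and the Nlgn2 window is chr11:69837785-69838034 on the minus strand.
Nlgn1 promoter: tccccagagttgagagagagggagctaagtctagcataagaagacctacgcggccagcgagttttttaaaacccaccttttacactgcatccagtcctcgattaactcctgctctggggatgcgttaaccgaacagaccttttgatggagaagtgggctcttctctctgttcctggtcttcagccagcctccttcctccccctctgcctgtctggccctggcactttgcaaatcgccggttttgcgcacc
Lrrtm1 promoter: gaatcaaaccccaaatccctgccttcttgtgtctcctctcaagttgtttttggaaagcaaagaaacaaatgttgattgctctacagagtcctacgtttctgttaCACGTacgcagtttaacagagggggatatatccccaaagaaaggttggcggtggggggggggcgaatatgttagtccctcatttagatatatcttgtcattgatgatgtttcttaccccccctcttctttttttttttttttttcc
Nlgn2 promoter: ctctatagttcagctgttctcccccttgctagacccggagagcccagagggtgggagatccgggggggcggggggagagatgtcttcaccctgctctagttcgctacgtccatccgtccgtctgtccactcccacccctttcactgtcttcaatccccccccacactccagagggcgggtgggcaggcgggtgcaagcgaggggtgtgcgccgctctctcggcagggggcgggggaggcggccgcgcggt
The RefSeq table held 10 promoter windows for 6 members, the others being Nrxn3, Lrrtm3 and Lrrtm4. Both strands of each were searched for ACGTG and GCGTG, the core letters bound by hypoxia-inducible factors, and for AGGTCA, the core letters bound by thyroid hormone receptors. The only match in the 10 windows was ACGTG in Lrrtm1, on the minus strand and so printed as CACGT, with its first printed base 146 bases before the start. Over the first 250 bases of all 32851 promoter windows in the table, ACGTG was found in 16.6%, GCGTG in 28.2%, either in 38.6% and AGGTCA in 14.02%. A match is a string of letters and not a shown binding site.

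Levels are given as TMM-normalized CPM, the authors' read counts scaled by library size with the trimmed mean of M-values, written CPM below. The read depth recovered from these values ran between 17182338 reads in hypoxia 7 and 33937842 reads in normoxia 2, and 1 read was worth 0.0302 to 0.0565 CPM, far below the level of every member. As a check of the labels, Slc2a1, a glucose transporter gene known to be induced by low oxygen, had 71.8, 89.2 and 73.7 CPM in hypoxia with T3, 47.8, 60.01 and 59.2 CPM in hypoxia and 9.78, 9.24 and 10.1 CPM in normoxia. The summed level of 6 neuron markers was 4885 to 4952 CPM in hypoxia with T3, 4979 to 5488 CPM in hypoxia and 6568 to 7052 CPM in normoxia. By limma 3 of the 6 (Tubb3, Syt1 and Rbfox3) were lower in hypoxia and Tubb3 was lower again with T3. Much of the fall in the sum was Tubb3, at 701 CPM in hypoxia with T3, 1104 CPM in hypoxia and 2373 CPM in normoxia on average. Map2, Snap25 and Stmn2 missed the threshold in every comparison. Summed glutamatergic markers were 657 to 750.0 CPM in hypoxia with T3, 717 to 761 CPM in hypoxia and 691 to 795 CPM in normoxia. By limma 0 of 4 changed in hypoxia against normoxia at an adjusted p or at an unadjusted p under 0.05, nor by edgeR or DESeq2. With T3 against hypoxia 0 of 4 passed by limma, edgeR or DESeq2, and 1 was lower at an unadjusted p under 0.05 by limma. With T3 against normoxia 1 of 4 was lower by limma, edgeR and DESeq2. By limma this was Neurod6 (log2 change -0.23, adjusted p = 0.015). Summed astrocyte markers were 268 to 372 CPM in hypoxia with T3, 204 to 395 CPM in hypoxia and 186 to 299 CPM in normoxia, and summed oligodendrocyte lineage markers were 133 to 189 CPM in hypoxia with T3, 79.7 to 213 CPM in hypoxia and 41.0 to 144 CPM in normoxia. Most of the astrocyte sum was Slc1a2, at 180.4 CPM in hypoxia with T3, 171 CPM in hypoxia and 169 CPM in normoxia on average, and all 9 astrocyte markers tested had a higher mean level in hypoxia than in normoxia. By limma 1 of these 9 passed the threshold in hypoxia (Aldoc, 22.7 against 5.58 CPM, log2 change 1.94, adjusted p = 0.031), as did 1 of 8 oligodendrocyte lineage markers (Mbp, log2 change 0.37, adjusted p = 0.048). Summed progenitor and cycling markers were 76.7 to 139 CPM in hypoxia with T3, 50.1 to 146 CPM in hypoxia and 16.8 to 103 CPM in normoxia, and summed GABAergic markers were 199.8 to 299 CPM in hypoxia with T3, 175 to 294 CPM in hypoxia and 189.9 to 284 CPM in normoxia. All 6 microglial markers were under 1 CPM in every library. Whether these markers have a part in the results below was not tested, and in bulk RNA fewer cells of a type and less RNA per cell cannot be told apart.

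The levels of the members spread widely when divided by the length of their exons. In normoxia the order was Nlgn2 with 99.2 ± 3.6 CPM per kb, Nrxn2 with 77.5 ± 7.0, Lrrtm1 with 32.0 ± 2.1, Nlgn3 with 17.4 ± 0.9, Nlgn1 with 7.32 ± 0.39, Lrrtm3 with 6.17 ± 0.58, Lrrtm2 with 6.04 ± 0.43, Nrxn3 with 4.93 ± 0.77 and Lrrtm4 with 2.49 ± 0.10 CPM per kb (SD, n = 3). Among these neighbours only Lrrtm3 and Lrrtm2, and Lrrtm2 and Nrxn3, overlapped in their libraries. The first 4 places were the same in all 3 groups. Nlgn1 stood in place 8 in hypoxia with T3, at 2.07 ± 0.49 CPM per kb, in place 7 in hypoxia, at 3.54 ± 0.78 CPM per kb, and in place 5 in normoxia. In both low-oxygen groups its libraries overlapped with those of the genes next to it in the order.

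**Figure D1:**
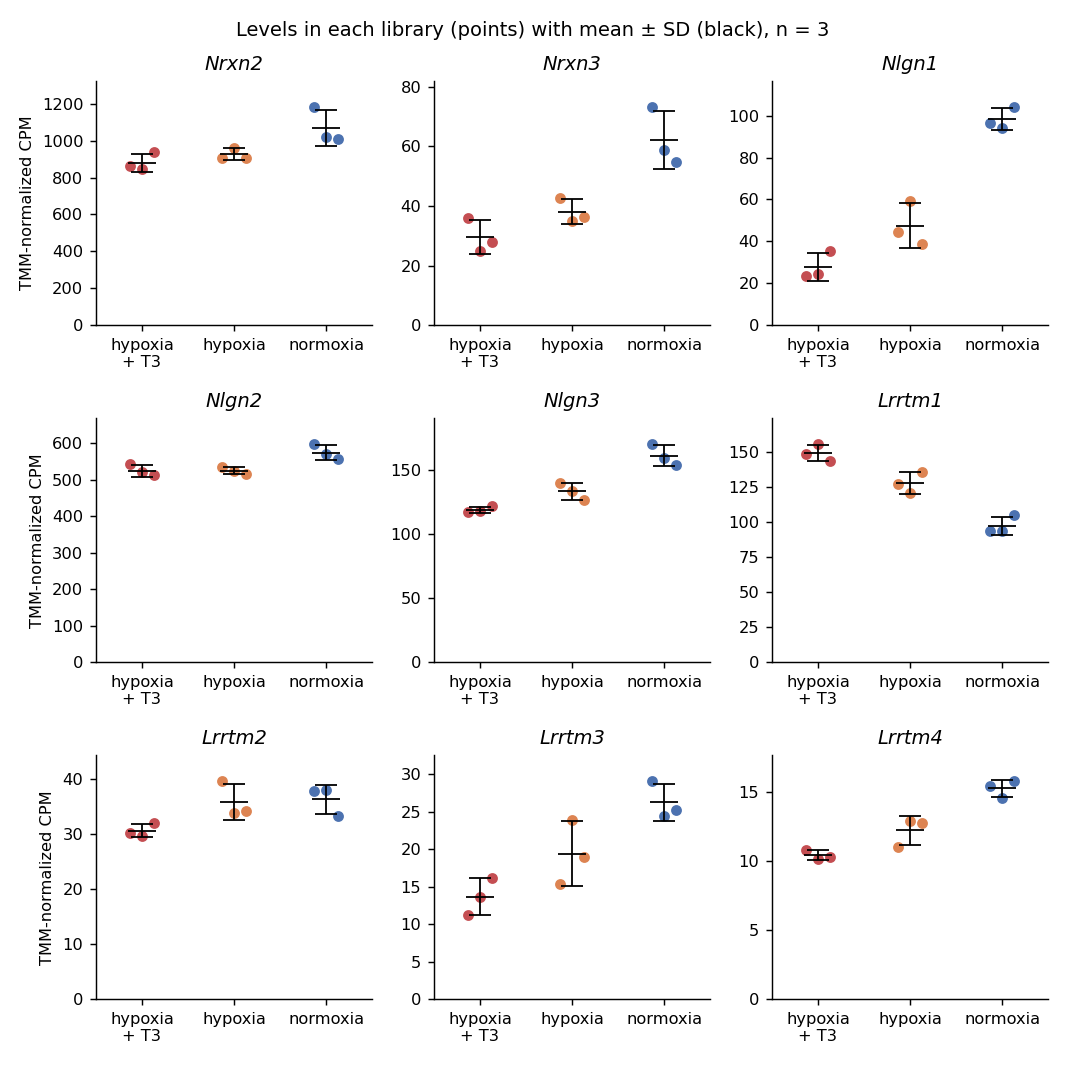
Level of each member in TMM-normalized CPM (y axis, linear, from 0) in hypoxia with T3, hypoxia and normoxia (x axis); points are libraries and black marks are the mean ± SD of 3. Nlgn1 sits at 23.5 to 35.4, 38.8 to 59.2 and 94.0 to 104 CPM in the 3 groups, and Lrrtm1 runs the other way.

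Both neurexins were lower in hypoxia than in normoxia. Nrxn3 had 36.0, 25.0 and 27.9 CPM in hypoxia with T3, 42.8, 35.0 and 36.2 CPM in hypoxia, and 73.1, 58.7 and 54.7 CPM in normoxia. Every hypoxia library lay below every normoxia library, while the T3 and hypoxia libraries overlapped. In hypoxia Nrxn3 was lower by a log2 change of -0.69 (SE 0.14, adjusted p = 0.0037 by limma over all genes tested), a difference of -38.9% in mean CPM. Between hypoxia with T3 and hypoxia the log2 change was -0.36 (95% interval -0.66 to -0.06, adjusted p = 0.12 by limma). Nrxn2 had 862, 844 and 937 CPM in hypoxia with T3, 909, 963 and 905 CPM in hypoxia, and 1182, 1018 and 1011 CPM in normoxia. Its lowest normoxia library was above its highest hypoxia library, and the difference was small: a log2 change of -0.21 (SE 0.07, adjusted p = 0.036 by limma). That Nrxn2 call was lost without normoxia 1 (0.11), hypoxia 7 (0.089), hypoxia 9 (0.11) or T3 12 (0.0501), with equal column sums (0.38), with no filter on low values (0.080), with only the hypoxia and normoxia libraries fitted (0.051) and with no trend in the variance (0.073). The log2 change of Nrxn2 with T3 against hypoxia was -0.07 (95% interval -0.22 to 0.08, adjusted p = 0.53 by limma).

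Nlgn1 fell the most of the 9 in hypoxia. Nlgn1 had 23.5, 24.6 and 35.4 CPM in hypoxia with T3, 44.6, 59.2 and 38.8 CPM in hypoxia, and 96.6, 94.0 and 104 CPM in normoxia. The 3 groups did not overlap. In hypoxia Nlgn1 was lower by a log2 change of -1.05 (SE 0.16, adjusted p = 0.00091 by limma), a difference of -51.6% in mean CPM, and 0.665% of all genes tested had a lower log2 change. In hypoxia with T3 it was lower again than in hypoxia, by a log2 change of -0.75 (SE 0.16, adjusted p = 0.029 by limma), a difference of -41.5% in mean CPM. This second call depended on single libraries and on the fit. Its adjusted p was 0.066 with no filter on low values, 0.057 with only the hypoxia and T3 libraries fitted and 0.064 with no trend in the variance. It was 0.071 without hypoxia 7, 0.12 without hypoxia 8, 0.13 without T3 11 and 0.11 without T3 12, while the log2 change stayed between -0.93 and -0.59 when any of the 9 libraries was left out.

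Nlgn3 had 117, 118 and 122 CPM in hypoxia with T3, 140.3, 133 and 126 CPM in hypoxia, and 170.2, 159 and 154 CPM in normoxia. Its groups did not overlap either. In hypoxia the log2 change of Nlgn3 was -0.27 (SE 0.06, adjusted p = 0.0040 by limma); with equal column sums it was -0.13 and the call was lost (adjusted p = 0.054). Between hypoxia with T3 and hypoxia it was -0.16 (95% interval -0.28 to -0.04, adjusted p = 0.092 by limma), and it passed with equal column sums (0.043). Nlgn2, the neuroligin of inhibitory synapses, had 543, 519.8 and 511 CPM in hypoxia with T3, 534, 524 and 515 CPM in hypoxia, and 597, 569 and 555 CPM in normoxia. The lowest normoxia library was above every low-oxygen library, and the low-oxygen groups overlapped almost wholly. Nlgn2 missed the threshold in hypoxia, with a log2 change of -0.13 (95% interval -0.23 to -0.03, adjusted p = 0.052 by limma). It passed with DESeq2 (0.034) and with a minimum mean of 5 CPM (0.046), and with equal column sums the change was 0.01. The log2 change of Nlgn2 with T3 against hypoxia was 0.00 (95% interval -0.10 to 0.10).

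Lrrtm1 was the only member that was higher in hypoxia. Lrrtm1 had 148, 155 and 144 CPM in hypoxia with T3, 127, 120.4 and 136 CPM in hypoxia, and 93.3, 93.6 and 105 CPM in normoxia. The groups did not overlap. In hypoxia the log2 change was 0.39 (SE 0.06, adjusted p = 0.0012 by limma), or 31.4% more in mean CPM. Lrrtm1 missed the threshold with T3 against hypoxia, with a log2 change of 0.22 (95% interval 0.08 to 0.36, adjusted p = 0.055 by limma), and passed it with DESeq2 (0.020), with a minimum mean of 5 CPM (0.049) and without hypoxia 9 (0.045) or T3 13 (0.044).

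The other LRRTM genes had lower mean levels in hypoxia than in normoxia. Lrrtm4 had 10.8, 10.1 and 10.3 CPM in hypoxia with T3, 11.0, 12.9 and 12.8 CPM in hypoxia, and 15.4, 14.6 and 15.8 CPM in normoxia. Its groups did not overlap, and in hypoxia its log2 change was -0.30 (SE 0.09, adjusted p = 0.024 by limma); the call was lost without normoxia 1 (0.062), normoxia 3 (0.069) or hypoxia 7 (0.085), and with equal column sums (0.16). Lrrtm3 had 11.3, 13.6 and 16.2 CPM in hypoxia with T3, 15.3, 23.9 and 19.0 CPM in hypoxia, and 29.0, 24.4 and 25.2 CPM in normoxia. The hypoxia libraries of Lrrtm3 stayed just under those of normoxia and overlapped those with T3. Its log2 change in hypoxia, -0.43 (95% interval -0.78 to -0.09), missed the threshold (adjusted p = 0.053 by limma), and passed it without hypoxia 8, T3 11 or T3 13, with a pseudocount of 5 (0.048), with a minimum mean of 5 CPM (0.047), with only the hypoxia and normoxia libraries fitted (0.045) and with DESeq2 (0.040). Lrrtm2 had 30.2, 29.7 and 32.0 CPM in hypoxia with T3, 39.6, 33.8 and 34.2 CPM in hypoxia, and 37.8, 38.0 and 33.3 CPM in normoxia. Its hypoxia and normoxia libraries overlapped (log2 change -0.02, 95% interval -0.20 to 0.16, adjusted p = 0.87 by limma), and the 3 libraries with T3 lay below all others. With equal column sums the log2 change of Lrrtm2 in hypoxia was 0.12 (adjusted p = 0.27 by limma). The adjusted p with T3 against hypoxia was 0.11 for Lrrtm2, 0.086 for Lrrtm3 and 0.15 for Lrrtm4 by limma, with log2 changes of -0.22, -0.47 and -0.21; Lrrtm3 passed with DESeq2 (0.027) and without T3 13 (0.037).

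In hypoxia against normoxia, 5 of the 9 members were lower, 1 was higher and 3 did not pass the test. The count of lower members was 3 without normoxia 1 or without hypoxia 7, and 2 with equal column sums. It was 7 with DESeq2 and with a minimum mean of 5 CPM, where Nlgn2 and Lrrtm3 passed. Over all 12923 genes tested, 33.6% changed in this comparison, 19.3% lower and 14.3% higher. The median log2 change was -0.27 over the members and -0.00 over all genes. The groups did not overlap for 8 of the 9, 7 lower and 1 higher, against 27.0% of all genes lower and 20.7% higher. Scaling the libraries to equal column sums moved the median of all genes in hypoxia by 0.13 and the share of higher genes among those changed to 76.3%, against 42.5% in the values as deposited. Under that scaling Nrxn3, Nlgn1 and Lrrtm1 were the members still past the threshold, and relative to the shifted median their log2 changes were -0.68, -1.04 and 0.40.

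In hypoxia with T3 against hypoxia, 1 of the 9 members, Nlgn1, was lower and 0 were higher by limma. At an unadjusted p under 0.05 limma counted 6 lower and 1 higher; edgeR on the recovered reads called 1 lower and 0 higher, and DESeq2 called 2 lower and 1 higher. Over all genes tested 6.48% changed, 3.75% lower and 2.73% higher. The median log2 change was -0.21 over the members and -0.01 over all genes. With equal column sums 29.0% of the genes changed were higher, against 42.1% as deposited. The groups did not overlap for 5 members, Nlgn1, Nlgn3, Lrrtm2 and Lrrtm4 lower and Lrrtm1 higher, against 15.8% of all genes lower and 15.8% higher.

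In hypoxia with T3 against normoxia all 9 members passed the threshold by limma, 8 lower and 1 higher. With edgeR 7 were lower, Nlgn2 missing the threshold at 0.059, as it also did with no filter on low values (0.055), with only the T3 and normoxia libraries fitted (0.061) and with no trend in the variance (0.081). Over all genes tested 55.1% changed, 29.5% lower and 25.5% higher, and none of the 9 had overlapping groups, against 33.0% of all genes lower and 29.8% higher without overlap. The mean level of Nlgn1 differed by -71.7% (log2 change -1.81, adjusted p = 9.3e-06 by limma), that of Nrxn3 by -52.4% (log2 change -1.05, adjusted p = 0.00010), that of Lrrtm3 by -47.8% (log2 change -0.90, adjusted p = 0.00063) and that of Lrrtm1 by 53.3% (log2 change 0.61, adjusted p = 2.3e-05). The smallest differences were those of Nlgn2, -8.54% (adjusted p = 0.035), and Lrrtm2, -15.7% (adjusted p = 0.026), and both calls were lost with equal column sums. The Nlgn2 call was lost without normoxia 1 or 2, hypoxia 8, or T3 12 or 13, and the Lrrtm2 call without normoxia 1 or 2 or T3 11 or 12; their log2 changes then stayed between -0.15 and -0.10 for Nlgn2 and between -0.30 and -0.21 for Lrrtm2 when any library was left out. With equal column sums 61.3% of all genes changed were higher, against 46.4% as deposited. The 3 comparisons share libraries, so this last one is not independent of the other two.

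**Figure D2:**
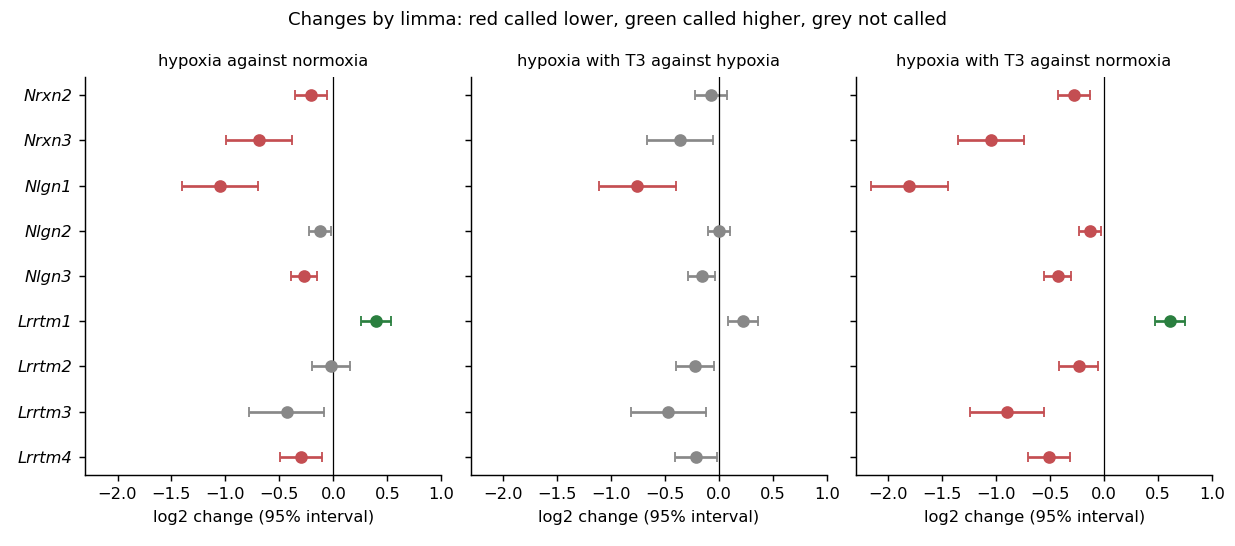
Log2 change of each member (x axis) with its 95% interval (bars, unadjusted) in the 3 comparisons; red (lower) and green (higher) mark an adjusted p under 0.05 by limma and grey the rest. Nlgn1 is lowest in each panel, at -1.05 in hypoxia against normoxia, -0.75 in hypoxia with T3 against hypoxia and -1.81 in hypoxia with T3 against normoxia, and Lrrtm1 is the only member whose intervals lie right of 0.

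Within each family, some or all members did not keep their proportions. This was compared as the log2 ratio of the CPM of 2 genes in the same library, which no scaling of whole libraries can move, in all 10 pairs within a family; each pair was tested over the 3 groups at once by an exact permutation test of the F statistic, whose smallest possible p is 0.0036, with adjustment over the 10 pairs. The ratios of CPM are not per length, so their size compares groups and not genes. By this test 7 of the 10 pairs differed between groups, 6 of them at the smallest possible p (adjusted p = 0.0060). Pairs within the neuroligins and within the LRRTMs share genes, so the 10 are not independent. Pairs of unrelated genes were not tested for comparison, and 55.1% of all genes tested changed in hypoxia with T3 against normoxia.

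The Nlgn1 to Nlgn2 log2 ratio was -4.53, -4.40 and -3.85 in hypoxia with T3, -3.58, -3.14 and -3.73 in hypoxia, and -2.63, -2.60 and -2.42 in normoxia. The 3 groups did not overlap. Nlgn1 to Nlgn3 averaged -2.12 ± 0.29 in hypoxia with T3, -1.51 ± 0.29 in hypoxia and -0.72 ± 0.13 in normoxia, and Nlgn2 to Nlgn3 averaged 2.14 ± 0.07 in hypoxia with T3, 1.98 ± 0.05 in hypoxia and 1.83 ± 0.02 in normoxia (SD, n = 3). Divided by exon length, Nlgn1 made up 1.97% ± 0.49 of the summed neuroligin level in hypoxia with T3, 3.26% ± 0.69 in hypoxia and 5.92% ± 0.46 in normoxia, and Nlgn2 made up 85.9% ± 0.9 in hypoxia with T3, 83.5% ± 0.8 in hypoxia and 80.05% ± 0.28 in normoxia (SD, n = 3).

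Among the LRRTM genes, the 3 ratios with Lrrtm1 on top differed. Lrrtm1 to Lrrtm3 averaged 3.46 ± 0.29 in hypoxia with T3, 2.74 ± 0.37 in hypoxia and 1.89 ± 0.19 in normoxia; Lrrtm1 to Lrrtm4 averaged 3.84 ± 0.09 in hypoxia with T3, 3.38 ± 0.16 in hypoxia and 2.67 ± 0.07 in normoxia; and Lrrtm1 to Lrrtm2 averaged 2.28 ± 0.11 in hypoxia with T3, 1.83 ± 0.15 in hypoxia and 1.42 ± 0.20 in normoxia (SD, n = 3). The ratios among Lrrtm2, Lrrtm3 and Lrrtm4 missed the threshold, with exact permutation adjusted p of 0.12 for Lrrtm2 to Lrrtm3, 0.14 for Lrrtm2 to Lrrtm4 and 0.16 for Lrrtm3 to Lrrtm4; without hypoxia 7 the first and the second passed it, at 0.020 and 0.024. Per exon length Lrrtm1 made up 83.1% ± 1.4 of the summed LRRTM level in hypoxia with T3, 77.1% ± 1.9 in hypoxia and 68.5% ± 2.4 in normoxia (SD, n = 3). The Nrxn2 to Nrxn3 ratio averaged 4.91 ± 0.28 in hypoxia with T3, 4.61 ± 0.19 in hypoxia and 4.11 ± 0.10 in normoxia (SD, n = 3; exact permutation adjusted p = 0.015), and without normoxia 1 the adjusted p was 0.071.

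**Figure D3:**
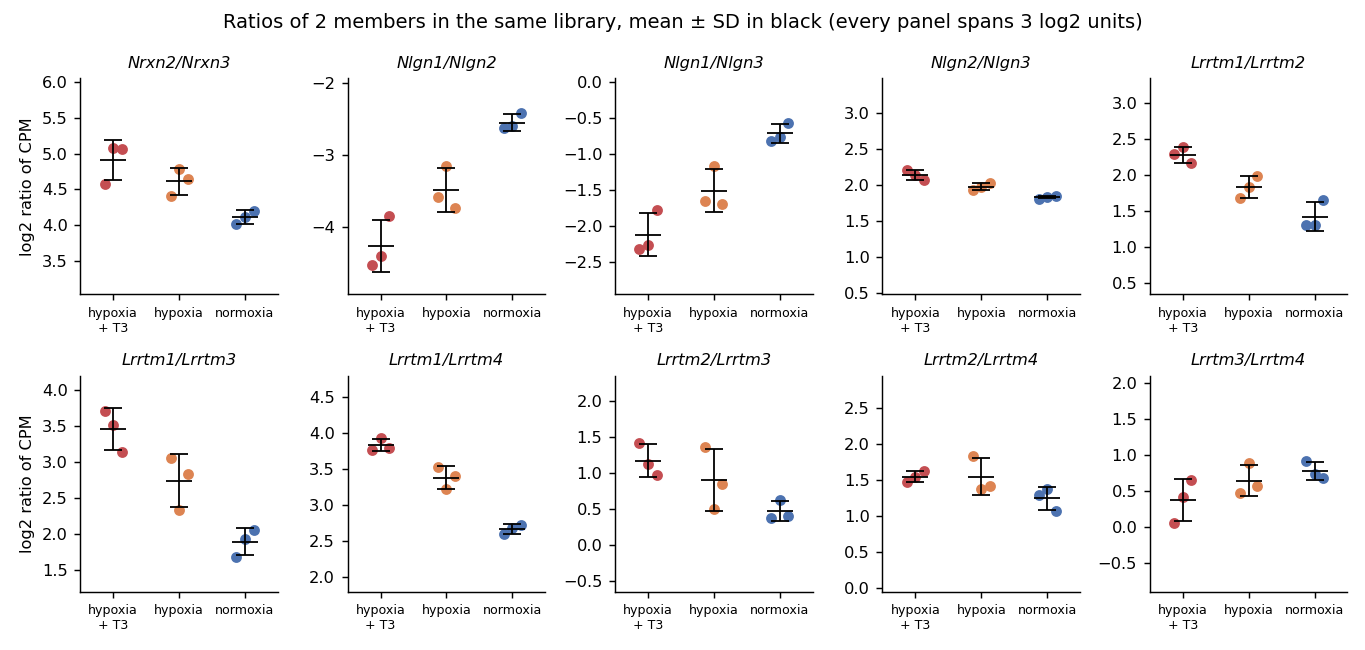
Log2 ratio of the CPM of 2 genes of the same family (y axis) in each library (points) with the group mean ± SD of 3 (black), for hypoxia with T3, hypoxia and normoxia. In the pairs Nlgn1/Nlgn2 and Lrrtm1/Lrrtm4 the 3 groups stand apart, with means of -4.26, -3.49 and -2.55 and of 3.84, 3.38 and 2.67.

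Several members lie inside other genes, which matters for counting. In the GENCODE M21 annotation of mm10, Lrrtm1 (chr6:77242689-77257791, plus strand) lies inside Ctnna2, Lrrtm3 (chr10:63928472-64090277, minus strand) inside Ctnna3, and Lrrtm2 (chromosome 18, minus strand) inside Ctnna1, each on the strand opposite to its alpha-catenin host. Nrxn2 (chr19:6418731-6544169, plus strand) also shares bases with Slc22a12 on the minus strand. The library kit kept strand, but whether the counting used it is not given in the sources used here, so reads of a gene and its antisense partner may not be separated. Ctnna2 averaged 189 CPM in hypoxia with T3, 184 CPM in hypoxia and 258 CPM in normoxia, lower in hypoxia by a log2 change of -0.48 (adjusted p = 0.00046 by limma), which is the opposite direction to Lrrtm1. Ctnna1 averaged 12.1 CPM in hypoxia with T3, 12.2 CPM in hypoxia and 10.9 CPM in normoxia and missed the threshold in hypoxia (adjusted p = 0.75 by limma), and Ctnna3 averaged 0.13 CPM in hypoxia with T3, 0.10 CPM in hypoxia and 0.18 CPM in normoxia, under the filter. Slc22a12 averaged 1.44 CPM in hypoxia with T3, 1.16 CPM in hypoxia and 0.84 CPM in normoxia, far under Nrxn2.

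The members differ greatly in the length of genome they span, and so do their changes. Nrxn3 (chr12:88722876-90334935, plus strand) spans 1612 kb, Nlgn1 (chr3:25426215-26332460, minus strand) 906 kb and Lrrtm4 (chr6:80018877-80810143, plus strand) 791 kb. Lrrtm3 spans 162 kb and Nrxn2 125 kb. Nlgn3 (chrX:101299168-101325963, plus strand) spans 26.8 kb, Lrrtm1 15.1 kb, Nlgn2 (chr11:69823122-69837784, minus strand) 14.7 kb and Lrrtm2 6.02 kb. All 3 members over 500 kb were lower in hypoxia, as was 1 of the 2 between 100 and 500 kb. Of the 4 under 100 kb, 1 was lower and 1 higher.

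The same split was seen over all genes, of which 12803 (99.1% of those tested) had a span; the bin edges were chosen after the values were seen. In hypoxia against normoxia 83.4% of the 199 genes over 500 kb were lower (median log2 change -0.76), 52.1% of the 1825 genes of 100 to 500 kb (median -0.30) and 12.7% of the 10779 genes under 100 kb (median 0.04). With T3 against hypoxia the shares lower were 29.1%, 13.6% and 1.64% in the same order, with medians of -0.38, -0.22 and 0.02. Against its bin, Nlgn1 had a larger decrease than the median in hypoxia against normoxia (log2 change -1.05) and with T3 against hypoxia (-0.75). In the same order of comparisons, Nrxn3 lay near the median (-0.69 and -0.36), and Lrrtm4 (-0.30 and -0.21) had a smaller decrease than its bin's median in both. The part of gene span in the changes of the members was not tested.

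**Figure D4:**
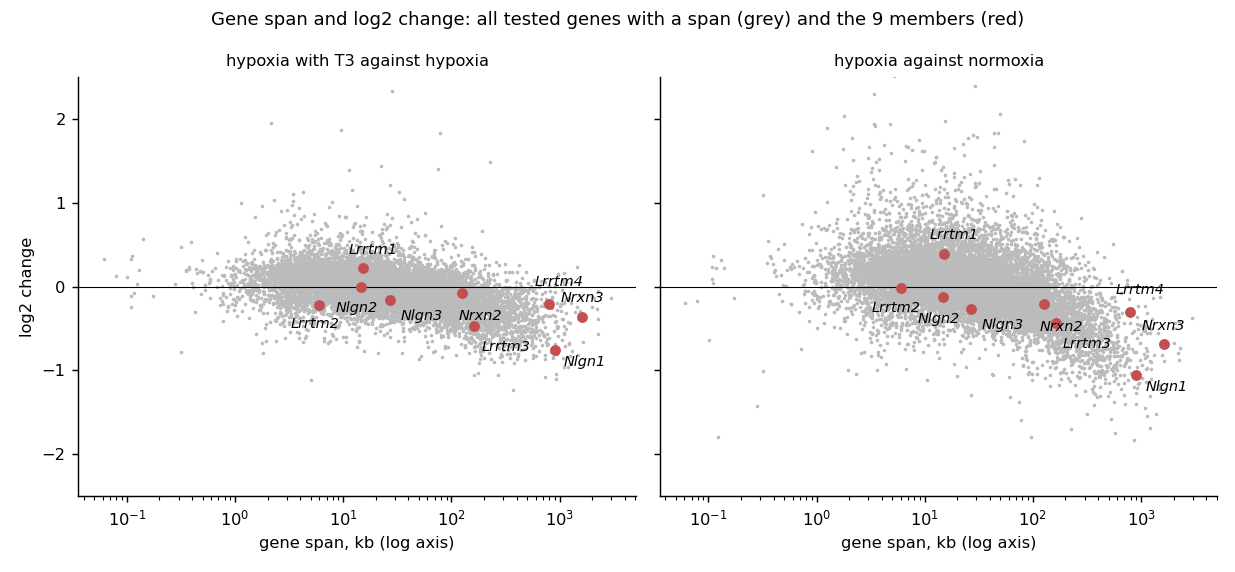
Log2 change (y axis) against gene span in kb (x axis, log scale) for the tested genes with a span (grey) and the 9 members (red), in hypoxia with T3 against hypoxia and in hypoxia against normoxia; the y axis ends at ±2.5, beyond which lie 1 and 4 genes. Of the 9 members, Nlgn1 at 906 kb has the lowest log2 change in both panels.

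Other genes around the neurexin complexes were described from 5 lists. Of 19 tested neurexin ligands and regulators, 5 were lower and 3 higher in hypoxia (median log2 change -0.13), or 26.3% and 15.8%, near the 19.3% lower and 14.3% higher over all genes. The lower ones included Clstn2, which encodes a calsyntenin of the postsynaptic membrane (-0.66, adjusted p = 0.00017), Adgrl3, a latrophilin listed as Lphn3 (-1.03, adjusted p = 0.0012), and Mdga2, whose protein binds neuroligins and blocks their contact with neurexins (-0.73, adjusted p = 0.0063 by limma). Adgrl2, another latrophilin (-0.42, adjusted p = 0.010), and Nxph1, a secreted neurexin ligand (-0.61, adjusted p = 0.019), complete the 5. The 3 higher ones were Nxph4 (0.56, adjusted p = 0.012), Mdga1 (0.55, adjusted p = 0.032) and Sparcl1 (0.22, adjusted p = 0.040 by limma); Nxph1 and these 3 were named after their values were seen. The count of higher ligands and regulators was 1 without normoxia 2, normoxia 3 or any of hypoxia 7, 8 and 9. With T3 against hypoxia 3.75% of all genes were lower and 2.73% higher. Of the 19, 2 were lower and 0 higher by limma (median -0.04), namely C1ql3, a secreted C1q-like protein (-0.50, adjusted p = 0.041), and Mdga2 (-0.62, adjusted p = 0.046 by limma). At an unadjusted p under 0.05 limma counted 6 lower and 1 higher, edgeR called 1 lower and 0 higher, and DESeq2 called 4 lower and 0 higher. The limma count of lower genes was 0 without normoxia 2, hypoxia 7, hypoxia 8, T3 11 or T3 12, 1 without normoxia 1 or 3, and 4 without hypoxia 9 or T3 13.

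Of 33 tested synaptic adhesion organizers outside these families, such as teneurins, SLITRKs and receptor phosphatases, 24 were lower and 1 higher in hypoxia (median log2 change -0.44, against -0.00 over all genes). That is 72.7% and 3.03%, beside 19.3% lower and 14.3% higher over all genes. The share lower was 83.4% of all genes over 500 kb and 52.1% of those of 100 to 500 kb. The part of gene span in the share of this list was not tested. Tenm1, a teneurin, changed by -1.26 (adjusted p = 1.0e-05), Il1rapl1, a postsynaptic partner of the receptor phosphatase PTPRD, by -1.52 (adjusted p = 2.3e-05), Cadm2, a SynCAM, by -1.06 (adjusted p = 2.9e-05), and Ptprd itself by -0.74 (adjusted p = 0.00020 by limma). The 1 higher gene was Lrfn4 (0.26, adjusted p = 0.0025 by limma), named after its value was seen. With T3 against hypoxia 12 were lower and 1, Cadm4, higher (median -0.30, against -0.01 over all genes). That is 36.4% and 3.03%, beside 3.75% lower and 2.73% higher over all genes. Flrt2, a latrophilin ligand, changed by -0.73 (adjusted p = 0.0057), Slitrk5 by -0.59 (adjusted p = 0.016), Tenm3, another teneurin, by -0.54 (adjusted p = 0.016) and Lrrc4c, the netrin-G1 ligand, by -0.76 (adjusted p = 0.017 by limma); Cadm4, named after its value was seen, changed by 0.33. The count of 12 fell to 8 without normoxia 2, to 2 without hypoxia 7 or T3 11 and to 1 without hypoxia 8 or T3 12, and was 5 when only the hypoxia and T3 libraries were fitted.

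Of 22 intracellular partners, which anchor these proteins to scaffolds and to the release machinery, 14 were lower and 1 higher in hypoxia (median log2 change -0.32). That is 63.6% and 4.55%, beside 19.3% lower and 14.3% higher over all genes (median -0.00). Dlgap1, a scaffold of the postsynaptic density, changed by -1.20 (adjusted p = 0.00044), Syt1, the calcium sensor of transmitter release, by -0.54 (adjusted p = 0.00091) and Apba2, a Mint adaptor, by -0.48 (adjusted p = 0.00021 by limma). The higher gene was Dlgap3 (0.21, adjusted p = 0.021 by limma), named after its value was seen. With T3 against hypoxia 5 were lower and 1 higher (median -0.14). That is 22.7% and 4.55%, beside 3.75% lower and 2.73% higher over all genes (median -0.01). Lower were the scaffolds Magi1 (-0.43, adjusted p = 0.020), Magi2 (-0.82, adjusted p = 0.041) and Dlgap1 (-0.73, adjusted p = 0.032), the adaptor Lin7a (-0.48, adjusted p = 0.036 by limma) and Dlgap2 (-0.67), and higher was Lin7b (0.36); Dlgap2 and Lin7b were named after their values were seen. The 5 fell to 3 without normoxia 1 or 3, to 2 without normoxia 2, to 1 without hypoxia 7 and to 0 without hypoxia 8, T3 11 or T3 12, and was 9 without T3 13.

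Of 8 shedding proteases, which cut neuroligins and neurexins at the surface, 2 were lower and 2 higher in hypoxia (median log2 change -0.09), beside 19.3% lower and 14.3% higher over all genes. Adam10 was among the lower ones (-0.26, adjusted p = 0.011), and Mmp9 (0.61, adjusted p = 0.0073) and Adam17 (0.44, adjusted p = 0.018 by limma) were the higher ones. Mmp9 lay near the filter of 1 CPM, at 1.86 CPM in hypoxia with T3, 1.52 CPM in hypoxia and 0.66 CPM in normoxia on average. Of 10 neurexin splicing regulators 7 were lower and 1, Nova1, higher (median log2 change -0.29). Khdrbs1 and Khdrbs3, whose proteins are known to control inclusion of an alternative neurexin exon, changed by -0.48 (adjusted p = 9.3e-05) and -0.42 (adjusted p = 0.0015 by limma). Rbfox1 changed by -0.67 (adjusted p = 0.0017) and Ptbp2 by -0.30 (adjusted p = 0.0028 by limma), while Nova1, named after its value was seen, changed by 0.39 (adjusted p = 0.045). By limma 0 of either list changed with T3 against hypoxia, beside 3.75% lower and 2.73% higher over all genes. At an unadjusted p under 0.05 it counted 0 proteases and, of the splicing regulators, 2 lower and 1 higher; edgeR called 0, and DESeq2 called 0 proteases and, of the splicing regulators, 1 lower and 1 higher. The table gives 1 value per gene, so the spliced forms themselves were not measured here.

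**Figure D5:**
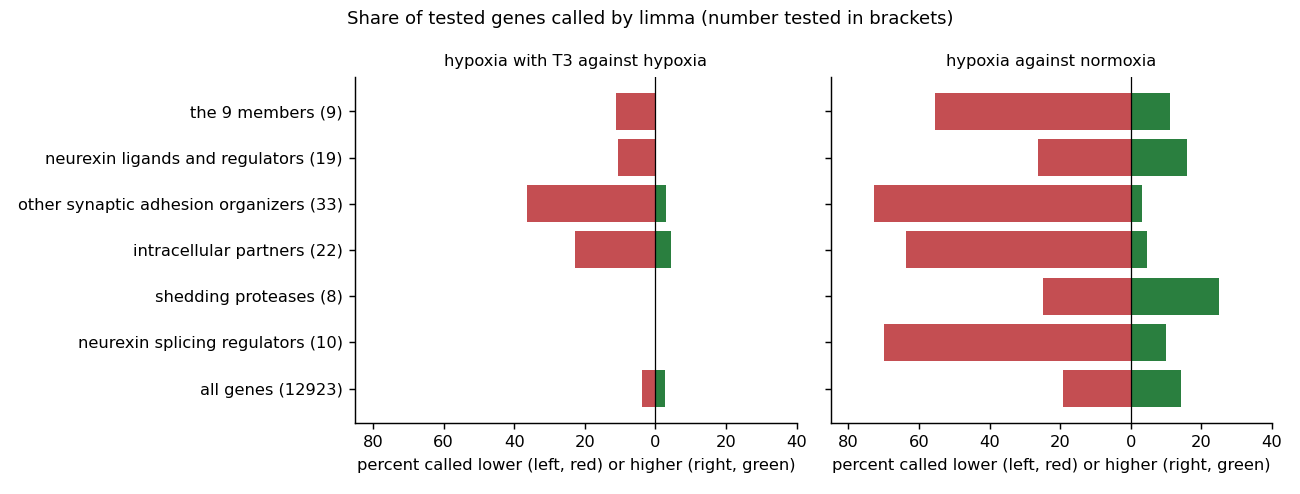
Percent of tested genes lower and higher (x axis) at an adjusted p under 0.05 by limma, for the 9 members, the 5 lists and all 12923 genes, in hypoxia with T3 against hypoxia and in hypoxia against normoxia. The synaptic adhesion organizers outside the 3 families have 12 and 24 of 33 lower, beside 3.75% and 19.3% of all genes.

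For each member the genes with the most similar pattern were taken by the Pearson correlation of log2 values over the 9 libraries, as a description; all genes share these libraries and their depth. Nlgn1 was followed most closely by Exoc4 (r = 0.998), Lingo2 (0.997) and Dcc (0.997), and Nrxn3 by Arnt2 (0.984), Syt1 (0.980) and Shank1 (0.978). Lrrtm1 was followed by Zbtb1 (0.993), Hey1 (0.992) and Isca1 (0.992), and Nlgn3 by Efnb2 (0.997), Ptpro (0.997) and Lmln (0.996). The closest gene was Dync1i2 for Nlgn2 (0.997), Abr for Nrxn2 (0.989), Htr7 for Lrrtm2 (0.961), Epb4.1 for Lrrtm3 (0.994) and Snapin for Lrrtm4 (0.982).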

How the data were processed

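Polyadenylated RNA was sequenced from stranded libraries, per the labels' protocols. The deposited signal is TMM-normalized CPM made by the authors with Bowtie2 2.1.0, RSEM 1.2.15 and edgeR (version not given) on mm10, per the submitters' processing notes; the annotation release is not given in the sources used here. Deposited columns sum to 945822 to 1091200, and 99.89% to 99.996% of values are whole multiples of 1 read within 0.01 reads, from which whole reads were recovered; depth covers counting error only. The hypoxia and T3 columns were matched to groups, not to single samples, and 1 unnamed column was not used.

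Genes above 1 CPM in at least 3 libraries were kept. log2 of the deposited value plus 1 was fitted over all 9 libraries in R 4.3.3 with limma 3.58.1 (eBayes, trend on, 6 residual degrees of freedom); two-sided p-values were Benjamini-Hochberg adjusted across all 12923 genes and called under 0.05; log2 changes are on that scale and understate those of low genes. A count test on recovered reads (edgeR 4.0.16 quasi-likelihood, DESeq2 1.42.0) and the other alternatives are given in the closing section. edgeR called 4288, 752 and 7093 genes in hypoxia against normoxia, T3 against hypoxia and T3 against normoxia. Ratio tests used scipy 1.17.1. The fit was tested on simulated data in which few genes changed, as many higher as lower. That setting cannot show how the fit behaves where as many genes change as in hypoxia against normoxia.

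The members and lists were chosen with earlier results of these data known. Named genes are all members, the called genes ranked first by adjusted p in every list (up to 4 per comparison), and exceptions named in the text; some list genes are not reported here. Spans and exon lengths are from GENCODE M21, promoters from RefSeq.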

Additional observations from a re-analysis of the deposited data

How the results depend on the processing

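No paired analysis was possible because columns 7 to 9 and 11 to 13 carry numbers that the sample titles do not use. Every member had at least 195 recovered reads in each library. A group left with 1 library fewer is assumed to vary like the others. Of 567 recomputed member changes, 505 kept direction and side of the threshold, 35 lost the call, 16 gained it and 11 changed sign. The 567 include the changes with the median of all genes subtracted. Those have no test of their own, could not lose or gain a call, and were compared by direction alone. Nrxn3, Nlgn1 and Lrrtm1 kept their calls in hypoxia in every alternative run. The list counts under the alternatives, leaving out rows off the read step and subtracting the median of all genes were added after seeing the data. The causes of the shifts below were not tested.

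With equal column sums, hypoxia called 2 members lower and, over all genes, 3974 higher and 1232 lower; Nlgn2 changed by 0.0116 and Lrrtm2 by 0.12 in hypoxia, and Nlgn2 by -0.0346 with T3 (-0.00362 with median-of-ratios scaling). In the lists in hypoxia it gave 2 adhesion organizers and 3 intracellular partners higher, 0 proteases and 4 splicing regulators lower. With T3 it called 2 members lower, 0 partners higher and 1 splicing regulator lower, and over all genes 284 higher and 697 lower.

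Without a filter on low values, T3 called 0 members lower, 93 genes higher and 79 lower, 0 ligands, 5 organizers and 1 partner lower and 0 partners higher, and hypoxia 1 ligand and 0 splicing regulators higher. With only the 2 groups compared T3 called 0 members lower, 143 genes higher and 132 lower, 1 ligand, 5 organizers and 1 partner lower and 0 partners higher, and hypoxia 0 splicing regulators higher. Without a variance trend T3 called 0 members lower, 94 genes higher and 140 lower, 0 ligands, 5 organizers and 1 partner lower, and 0 organizers and 0 partners higher; hypoxia then had 1 ligand, 0 partners and 0 splicing regulators higher. With a mean of at least 5 CPM, T3 called 1 member higher (Lrrtm1), 4 ligands lower and 1 splicing regulator higher, and hypoxia 1 protease higher. DESeq2 with T3 called 1 member higher and 2 lower, 760 genes higher and 968 lower, 4 ligands lower, 2 partners higher, and 1 splicing regulator in each direction; edgeR gave 1 ligand and 3 partners lower.

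Leaving out each library gave, in hypoxia, 3 to 6 members lower and 1 higher, 1171 to 1820 genes higher and 1788 to 2566 lower; 4 to 7 ligands lower and 1 to 3 higher, 18 to 24 organizers lower, 11 to 15 partners lower and 0 to 1 higher, 1 to 2 proteases in each direction, and 6 to 7 splicing regulators lower and 0 to 1 higher. With T3 against hypoxia it gave 0 to 2 members lower and 0 to 1 higher, 12 to 1104 genes lower and 19 to 713 higher; 0 to 4 ligands, 1 to 17 organizers, 0 to 9 partners and 0 to 1 splicing regulators lower, and 0 to 1 organizers and partners higher. With T3 against normoxia it gave 6 to 8 members lower, 2630 to 3323 genes higher and 3275 to 3807 lower. Over all genes the counts of T3 against hypoxia were lowest without T3 12 and highest without T3 13. Lrrtm2 in hypoxia then ranged over -0.0910 to 0.0195 and Nlgn2 with T3 over -0.0246 to 0.0186. The adjusted p of the ratio tests, by exact permutation, ranged over 0.00893 to 0.0714 for Nrxn2/Nrxn3, 0.020 to 0.25 for Lrrtm2/Lrrtm3, 0.024 to 0.39 for Lrrtm2/Lrrtm4, 0.085 to 0.35 for Lrrtm3/Lrrtm4 and 0.00714 to 0.0238 for the other 6.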
